A study of Mus musculus with 12 samples.

Results

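The matrix proteases and their inhibitors described here are the protein-coding genes of 3 families named Mmp with a number, Adamts with a number and Timp with a number. They were chosen by name alone from the gene table of the series, and 45 of its 52550 genes met the rule: 22 Mmp, 19 Adamts and 4 Timp genes. Mmp1a, whose name fits but which is annotated as a polymorphic pseudogene, was left out, and its highest level in any library was 0.07 TPM. The samples were RNA-seq libraries of D2A1 and D2.OR, mouse mammary carcinoma cell lines that came from separate tumors of different mice. Each line was grown in 2D on plastic or in 3D on growth-factor-reduced Matrigel, a basement membrane extract, which gave 4 groups of 3 libraries: D2A1 2D, D2A1 3D, D2.OR 2D and D2.OR 3D. In the study's assays D2A1 kept proliferating in 3D and D2.OR stopped. The 3D medium held a low share of horse serum with hydrocortisone, cholera toxin and insulin, while the methods describe both that medium and a standard one with fetal bovine serum for 2D. The cells in 3D were freed from Matrigel on ice before lysis, so matrix, handling and possibly medium cannot be told apart in the culture comparison. Each line is a single established line, and wells were pooled for each library, so the replicates are repeat samples of a line and not separate tumors.

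Mmp genes encode zinc-dependent matrix metalloproteinases, which are made as inactive proenzymes and cleave collagens, laminins, fibronectin, growth factors and their receptors. Adamts genes encode secreted relatives with thrombospondin repeats, which trim procollagens and cleave large proteoglycans such as versican and aggrecan. Timp genes encode the tissue inhibitors of metalloproteinases, which block the active site of Mmp enzymes, and Timp3 also inhibits some Adamts enzymes. In mammary tumors these genes are expressed by stromal and by carcinoma cells, and basement membrane breakdown is a process the Mmp enzymes are known for. RNA levels do not tell how much enzyme is active.

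Library totals ran from 47589611 to 73325069 expected counts. The replicate number is a processing batch, and each batch was on a lane of its own: batch 1 on lane 8, batch 2 on lane 6 and batch 3 on lane 7. The libraries of batch 1 stood apart for several members, and without them the genes called between 3D and 2D rose from 586 to 6120 in D2A1 and from 273 to 1412 in D2.OR. Against the label of a mammary carcinoma line, Epcam lay between 0.02 and 0.17 TPM, Cdh1 between 0.02 and 0.28 TPM and Krt8 between 0.78 and 2.31 TPM in the D2A1 libraries, while Krt18 was at 92.7 TPM or more. In D2.OR, Epcam lay between 1.54 and 5.42 TPM, Cdh1 between 8.93 and 183 TPM and Krt8 between 227 and 1022 TPM, whereas Cldn3 lay between 5.92 and 16.5 TPM in D2A1 and between 2 and 9.82 TPM in D2.OR. The 8 luminal epithelial markers summed to 215 to 311 TPM in D2A1 2D and 111 to 227 TPM in D2A1 3D, and to 1169 to 1723 TPM in D2.OR 2D and 421 to 880.1 TPM in D2.OR 3D, which did not overlap, and the 4 basal epithelial markers to 0.53 to 2.52 TPM and 3.61 to 11.3 TPM. The 8 mesenchymal markers summed to 3324 to 8102 TPM over all libraries, and the 7 fibroblast markers to 28.6 to 78.1 TPM in D2A1 and to 118 to 337 TPM in D2.OR. Endothelial markers summed to at most 0.63 TPM, and Ptprc, which marks leukocytes, to at most 0.05 TPM. The 6 macrophage and leukocyte markers as a list summed to 24.6 to 72.8 TPM in D2A1 2D, 40.4 to 192 TPM in D2A1 3D and 12.7 to 55.8 TPM in D2.OR, nearly all of it Cd14 and Cd68. The part of these marker levels in the results on the proteases was not tested. Fewer cells with a transcript and less of it per cell cannot be told apart in such bulk libraries.

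Many of the members were barely transcribed in either line. Levels are given as TPM (transcripts scaled by length to the same total in each library), which allow genes to be compared per length. A group mean of 1 TPM was reached in at least 1 group by 22 members, 10 Mmp, 9 Adamts and 3 Timp, and 15 members reached 10 TPM. Another 12 members stayed under 0.1 TPM in every library, and of these Mmp20, Adamts19 and Adamts20 were listed at 0 in all 12. The filter on low counts kept 32 members for testing, 14 Mmp, 14 Adamts and all 4 Timp. The 13 members it removed reached at most 0.26 TPM, the value of Mmp7 in D2A1 2D replicate 2. Of the 32 tested, 10 stayed under a mean of 1 TPM in every group: Timp4, Mmp9, Mmp12, Mmp17, Mmp24, Adamts2, Adamts8, Adamts13, Adamts15 and Adamts17.

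**Figure D1:**
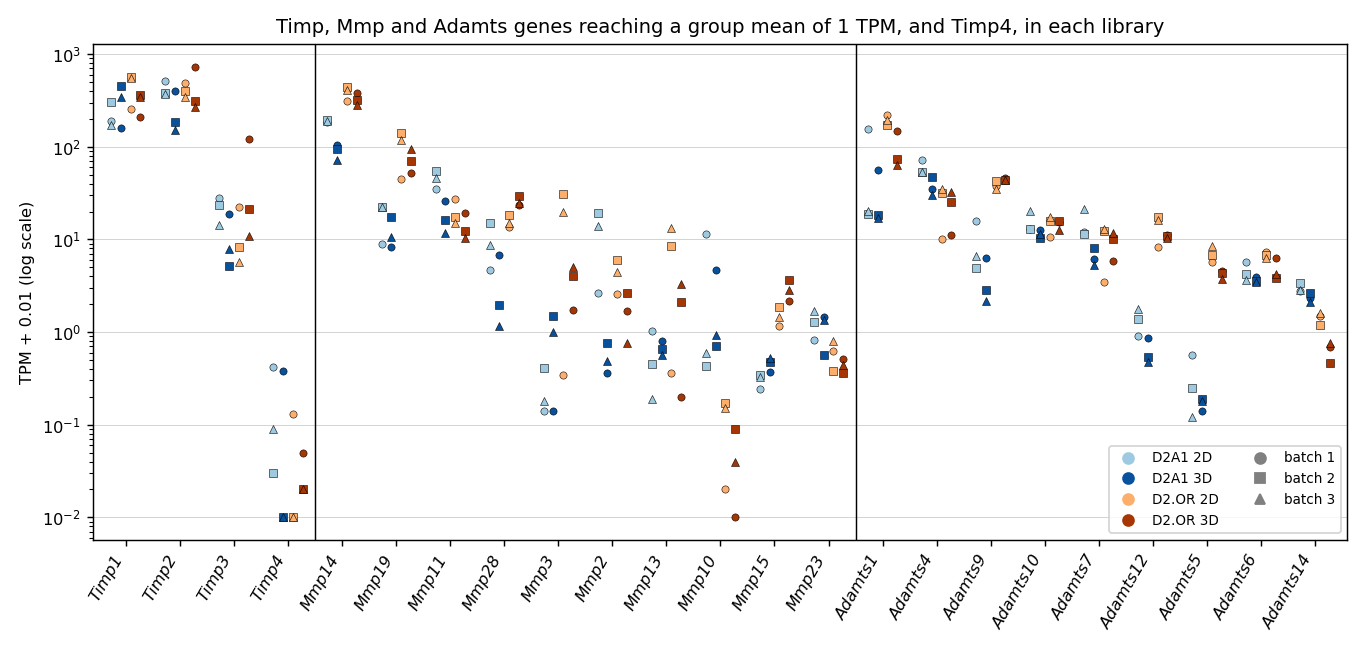
TPM in each library (vertical axis, log scale, 0.01 added) for the 22 members with a group mean of at least 1 TPM and for Timp4. Colors mark the 4 groups and symbols the batches. Timp1, Timp2 and Mmp14 lie highest, and the circles of batch 1 lie apart from the other symbols for Mmp3, Mmp10, Mmp13, Adamts1 and Timp3.

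The summed TPM of each family was highest in D2.OR 2D and lowest in D2A1 3D, but in CPM the Timp sum of D2.OR was higher in 3D than in 2D (log2 ratio 0.085 against -0.15 in TPM). The Mmp genes summed to 281 ± 28.5 TPM (SD, n = 3) in D2A1 2D, 130.5 ± 26.7 in D2A1 3D, 555 ± 134 in D2.OR 2D and 451 ± 30.3 in D2.OR 3D. Every D2.OR library was above every D2A1 library, with a ratio of group means of 1.98 in 2D and 3.46 in 3D. Mmp14 alone made up 62.6% to 78.4% of this sum in every library. The Adamts genes summed to 174 ± 92.3 TPM in D2A1 2D, 96.5 ± 25.5 in D2A1 3D, 315 ± 12.1 in D2.OR 2D and 208 ± 36.7 in D2.OR 3D, and the wide spread of D2A1 2D came from replicate 1 at 279.8 TPM against 111 and 130.4 in the other replicates. The leading Adamts gene was Adamts1 in all 6 D2.OR libraries and in the batch 1 libraries of D2A1, and Adamts4 in the other 4 D2A1 libraries. The Timp genes summed to 665 ± 96.5, 575 ± 70.9, 883 ± 104 and 796 ± 238 TPM in the same order of groups, and the groups in 3D overlapped between the lines. These sums are descriptions and were not tested.

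**Figure D2:**
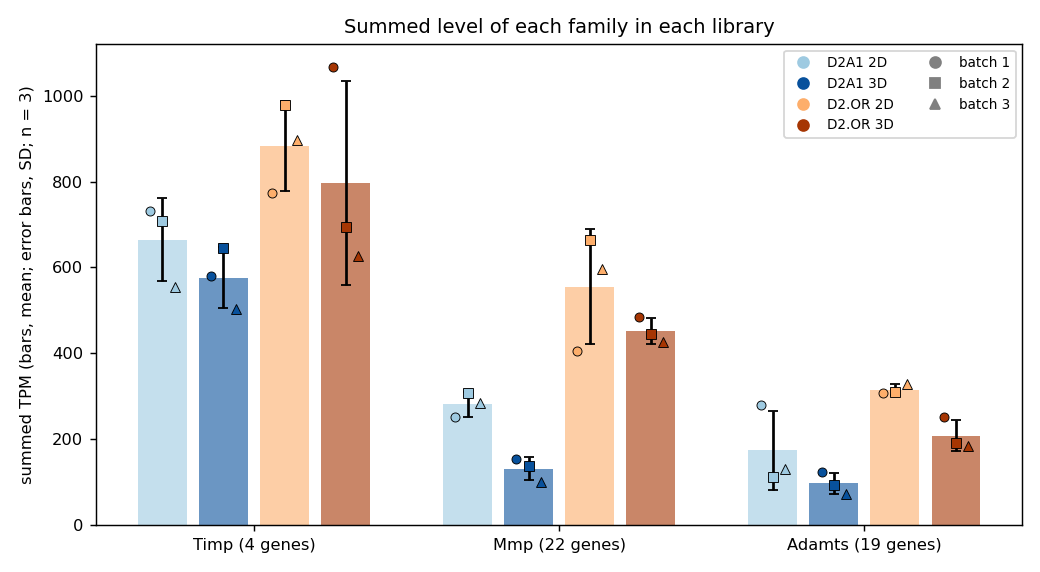
Summed TPM of the Timp, Mmp and Adamts genes in each library (points), with the group mean (bars) and SD (error bars). The Mmp sums of D2.OR lie between 405 and 664 TPM and those of D2A1 between 101 and 307 TPM.

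The comparison of the lines asks which of these genes distinguish the line that goes dormant in 3D from the line that does not. More of the proteases were higher than lower in D2.OR in both cultures, among them Mmp14, Mmp15, Mmp19, Adamts5, Adamts9 and Adamts12, whereas Mmp10, Mmp23 and Adamts14 were lower in D2.OR in both. Of the calls of these lower genes, only that of Adamts14 in 3D was kept in every alternative fit. Fold changes below are log2 fold changes from edgeR's quasi-likelihood test on counts with batch as a block. The test gives no SE, so the SE shown is the absolute log2 fold change divided by the square root of the F statistic. A call is a Benjamini-Hochberg adjusted p under 0.05 over all genes tested. In 2D, 21 of the 32 tested members were called, 15 higher and 6 lower in D2.OR, beside 49.8% of all 16823 genes tested (25.4% higher and 24.4% lower). In 3D, 19 were called, 16 higher and 3 lower, beside 53.8% of all genes (27.7% higher and 26.1% lower). The median log2 fold change of the tested members was 0.87 in 2D and 1.18 in 3D, and that of all genes was -0.0034 and 0.0005. By family, 10 of 14 Mmp, 10 of 14 Adamts and 1 of 4 Timp genes were called in 2D, and 8, 9 and 2 in 3D. Of the calls, 9 in 2D and 11 in 3D were kept in every alternative in which the gene was tested, left-out libraries and batches included. Among these, Mmp3 and Adamts2 in 2D and Adamts2 and Adamts8 in 3D could not be tested with at least 10 counts in every library. Without batch 2 the 2D calls fell from 21 to 10, all higher in D2.OR, while those over all genes fell from 8378 to 4227 (2383 higher and 1844 lower).

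**Figure D3:**
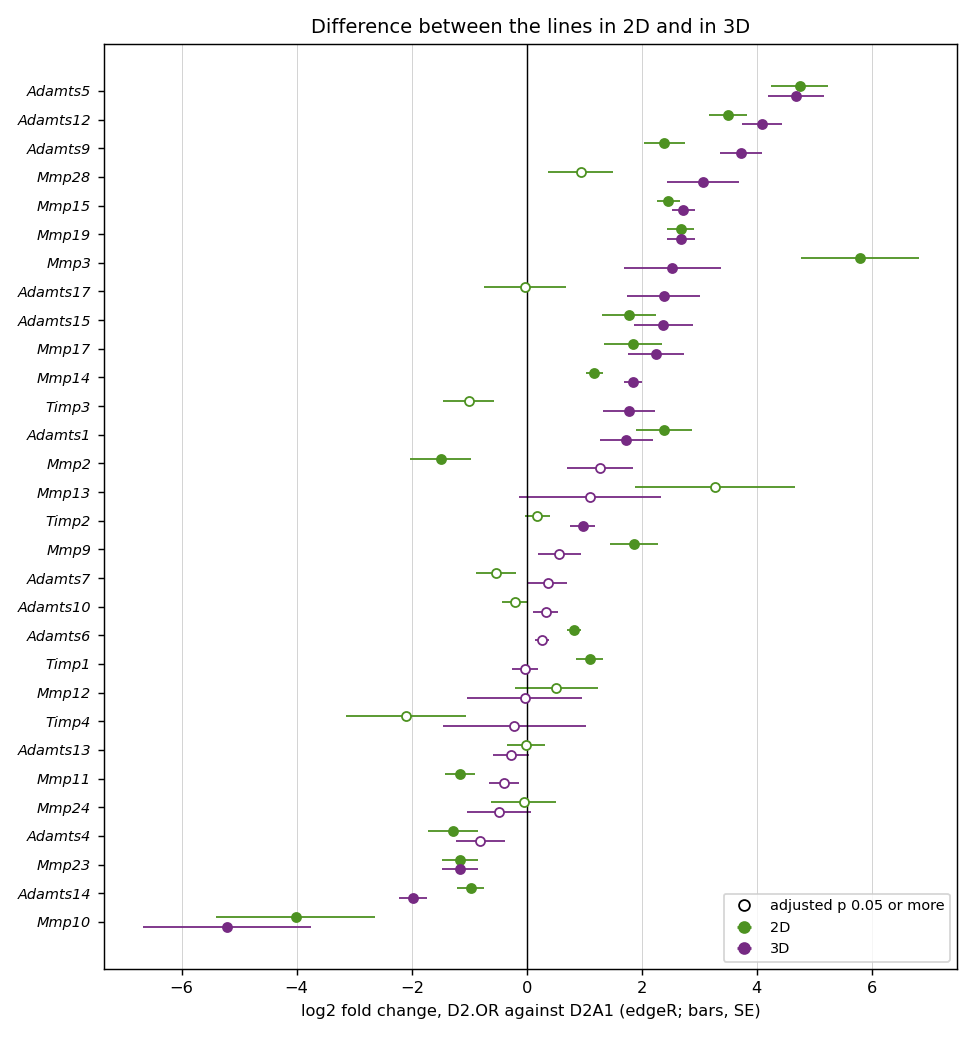
Log2 fold change of D2.OR against D2A1 with its SE (horizontal axis) for 30 tested members in 2D and 3D. Filled points have an adjusted p under 0.05, and Adamts2 and Adamts8 are left out because they had no or almost no counts in D2A1. Adamts5 and Adamts12 lie far to the right in both cultures, Mmp10 far to the left, and Mmp2 and Timp3 change side between the cultures.

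The comparison of 3D with 2D asks which genes changed with the culture. In D2A1, Mmp2, Mmp11 and Mmp14 fell and Mmp9 rose, so 4 of 32 members were called beside 3.48% of all genes tested (1.37% higher and 2.12% lower in 3D). In D2.OR only Adamts6 and Adamts14 were called, both lower, beside 1.62% of all genes (0.838% higher and 0.785% lower). None of these 6 calls held in every alternative: each was lost without batch 2 and without batch 3, where at most 1 gene of all those tested was called in either line. Over all genes, 21 were called in D2A1 without D2A1 2D replicate 3, and 0 without D2A1 2D replicate 2 or D2A1 3D replicate 2 or 3. With 1 D2.OR library of batch 2 or 3 left out, 74 to 105 genes were called in D2A1 and 2 to 31 in D2.OR. Without the batch block no D2.OR call was kept, and with only the 6 libraries compared no D2A1 call. The interaction, which asks whether the change with culture differed between the lines, called no member with edgeR, beside 0.0238% of all genes (0.0178% positive and 0.00594% negative). In the same edgeR test 12 of the 32 tested members had an unadjusted p under 0.05, beside 2997 of all 16823 genes. A difference described below as not called or as missing the threshold is one of the reported edgeR fit. DESeq2 also called Adamts1, Mmp15 and Timp3 with culture in D2.OR (5 members in all, beside 1174 genes), and Timp2, Timp3, Mmp15, Mmp28, Adamts7, Adamts9 and Adamts12 in D2A1 (11 in all, beside 3512 genes). With DESeq2's likelihood-ratio test the interaction called 3 members, Mmp2, Timp1 and Timp3, beside 953 of 16823 genes. Without batch 1, edgeR called 13 of 29 members for the interaction beside 2999 of 16842 genes, 9 in D2.OR beside 1412 genes and 11 in D2A1 beside 6120 genes. The median log2 fold change of the members was -0.30 in D2.OR and -0.53 in D2A1, beside 0.002 and 0.0037 over all genes. The comparisons share libraries, so their values stand side by side below and were not correlated.

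**Figure D4:**
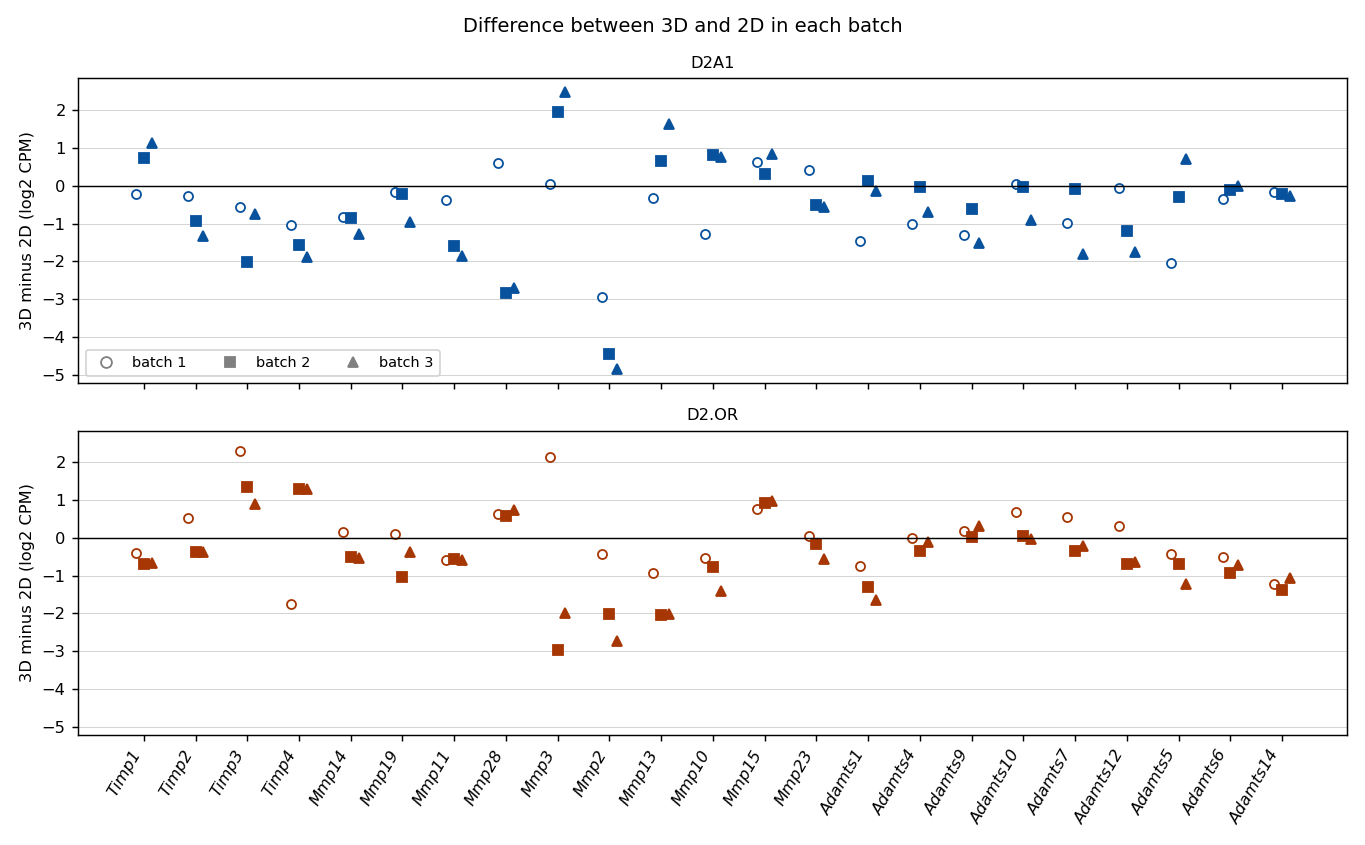
Difference between 3D and 2D (log2 CPM, vertical axis) within each batch, in D2A1 (above) and D2.OR (below), for the members of the plot of levels. Mmp2 and Mmp14 lie below 0 in all 3 batches of D2A1, Timp3 lies above 0 in D2.OR and below 0 in D2A1, and batch 1 (open circles) lies away from the other batches for Mmp3, Mmp28 and Adamts5.

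Timp1 and Timp2 were among the most abundant members in both lines, and Timp3 was called higher in D2.OR in 3D. Timp1, a secreted inhibitor of most Mmp enzymes, stood in 2D at 191, 305 and 171 TPM in D2A1 replicates 1 to 3 and at 256, 568 and 547 TPM in D2.OR. It stood in 3D at 160.3, 454 and 342 TPM in D2A1 and at 210.1, 359 and 347 TPM in D2.OR. The 2D groups overlapped only through replicate 1 of D2.OR, and the 3D groups overlapped fully. Timp1 was higher in D2.OR in 2D (log2 fold change 1.09 ± 0.24, adjusted p = 0.00452), a call lost without batch 2 (1.12, adjusted p = 0.0601) or batch 3 (0.79, adjusted p = 0.0504). In 3D the difference was -0.03 ± 0.23, adjusted p = 0.913, and the interaction was -1.13 ± 0.33, adjusted p = 0.161, which became -1.61, adjusted p = 0.00957 without batch 1 and -1.42, adjusted p = 0.0136 without D2A1 2D replicate 1.

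Timp2, which with Mmp14 takes part in the activation of pro-Mmp2, stood in 2D at 512, 381 and 368 TPM in D2A1 and at 494, 402 and 345 TPM in D2.OR. The levels in 3D were 399.6, 185 and 153 TPM in D2A1 and 735, 314 and 268 TPM in D2.OR. Replicate 1 was the highest library in each of the 4 groups, and within every batch of the 3D cultures D2.OR was the higher line. The 3D difference was called (log2 fold change 0.97 ± 0.22, adjusted p = 0.00523) and was lost without batch 2 (1.03, adjusted p = 0.0583) and without the batch block. In 2D the lines did not differ beyond their spread (0.18 ± 0.22, adjusted p = 0.524), and the lower level of D2A1 in 3D than in 2D missed the threshold (-0.85 ± 0.22, adjusted p = 0.0587), passing it without batch 1 (-1.13, adjusted p = 0.000617).

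Timp3 binds to the matrix and also inhibits Adam17 and the aggrecan-cleaving Adamts enzymes. It stood in 2D at 28, 23.5 and 14.3 TPM in D2A1 and at 22.5, 8.19 and 5.7 TPM in D2.OR. On Matrigel the levels were 18.7, 5.21 and 7.79 TPM in D2A1 and 122, 21.3 and 10.9 TPM in D2.OR, where replicate 1 was far above the others. In every batch its level was lower in 3D than in 2D in D2A1 and higher in D2.OR. Neither difference was called in the reported fit, and DESeq2 called both (-1.16, adjusted p = 0.0433 in D2A1 and 1.66, adjusted p = 0.0074 in D2.OR). It was higher in D2.OR in 3D (log2 fold change 1.78 ± 0.45, adjusted p = 0.0091), with 1.12, adjusted p = 0.0327 without the high library, 1.16, adjusted p = 0.02 without batch 1 and 2.40, adjusted p = 0.0142 without batch 3, and the call was lost without batch 2 (1.71, adjusted p = 0.0736) or the batch block (2.23, adjusted p = 0.0513). In 2D the difference had the other sign and missed the threshold (-1.01 ± 0.44, adjusted p = 0.0829), passing it in some alternatives, among them with DESeq2 (-1.01, adjusted p = 0.0433) and without batch 1 (-1.3, adjusted p = 0.013). The interaction of line and culture was 2.79 ± 0.62, adjusted p = 0.11 with edgeR, the lowest adjusted p of any member, and 2.82, adjusted p = 0.000973 with DESeq2's likelihood-ratio test. It was 2.46, adjusted p = 0.0153 without batch 1. Timp4 was barely present, with D2A1 replicate 1 highest at 0.41 TPM in 2D and 0.37 TPM in 3D and the other 10 libraries at 0 to 0.12 TPM. Timp1, Timp3 and Timp4 lie inside the synapsin genes Syn1, Syn3 and Syn2 on the opposite strand, which reached at most 3.24, 0.4 and 1.24 TPM, and Timp3 had expected counts that were not whole in 8 of 12 libraries, a sign that some of its reads were shared.

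Among the membrane-type enzymes, Mmp14 had the highest level of the Mmp and Adamts genes in every library, and its levels separated the lines. Mmp14, a cell-surface collagenase that activates pro-Mmp2, stood in 2D at 185, 192 and 189.8 TPM in D2A1 and at 313, 439 and 408 TPM in D2.OR. Its 3D libraries held 103, 95.6 and 72 TPM in D2A1 and 379.8, 317 and 282 TPM in D2.OR. Every D2.OR library was above every D2A1 library, and within D2A1 every 3D library was below every 2D library. It was higher in D2.OR in 2D (log2 fold change 1.17 ± 0.15, adjusted p = 0.000259) and in 3D (1.84 ± 0.15, adjusted p = 1.95e-05), and both calls were kept in all alternatives. In D2A1 it fell from 2D to 3D by edgeR (-0.98 ± 0.15, adjusted p = 0.0255), a call lost when either D2A1 library of batch 2 or of batch 3 was left out, at fold changes of -0.86 to -1.02 and adjusted p of 0.111 to 0.157. In D2.OR the change was -0.31 ± 0.15, adjusted p = 0.322, and -0.52, adjusted p = 0.0327 without batch 1, and the interaction was 0.67 ± 0.21, adjusted p = 0.173.

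Mmp15, the second of the transmembrane type, was low but separated the lines. It stood in 2D at 0.23, 0.33 and 0.32 TPM in D2A1 and at 1.14, 1.86 and 1.46 TPM in D2.OR. In 3D it stood at 0.36, 0.47 and 0.52 TPM in D2A1 and at 2.14, 3.68 and 2.85 TPM in D2.OR. All D2.OR values were above all D2A1 values, and in both lines the 3D values were above the 2D values. The log2 fold change between the lines was 2.46 ± 0.20, adjusted p = 1.96e-05 in 2D and 2.72 ± 0.20, adjusted p = 9.04e-06 in 3D, and both calls were kept in all alternatives. The higher level in 3D missed the threshold in D2.OR (0.89 ± 0.19, adjusted p = 0.0546) and in D2A1 (0.63 ± 0.20, adjusted p = 0.0806) in the reported fit. DESeq2 called it in both (0.89, adjusted p = 0.000311 and 0.61, adjusted p = 0.0446), and in D2.OR it was also called with limma, with library totals alone, with only the 6 libraries compared, and without batch 1 or D2A1 2D replicate 1. Of the other membrane-type members, Mmp17, which is held by a lipid anchor, was called higher in D2.OR in 2D (1.85 ± 0.50, adjusted p = 0.0131) and in 3D (2.25 ± 0.49, adjusted p = 0.00403) at a highest library value of 1.87 TPM, and it is named here after its values were seen. The 3D value was 1.63, adjusted p = 0.00764 without D2A1 3D replicate 1 and 1.40, adjusted p = 0.00921 without batch 1. Its 2D call was lost without D2A1 2D replicate 2 (1.75, adjusted p = 0.0542), batch 2 or batch 3. That call was also lost without the batch block and with limma on log2(TPM + 1) and on log2(TPM + 0.1). Mmp24 reached 0.12 TPM and Mmp16 and Mmp25 at most 0.07 TPM.

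The gelatinases moved in opposite directions with culture in D2A1. Mmp2, gelatinase A, stood in 2D at 2.66, 19 and 13.9 TPM in D2A1 and at 2.59, 5.98 and 4.46 TPM in D2.OR. The levels in 3D were 0.35, 0.75 and 0.48 TPM in D2A1 and 1.68, 2.6 and 0.75 TPM in D2.OR. Every D2A1 library in 3D was under 1 TPM and every D2A1 library in 2D was above 2 TPM, with replicate 1 the lowest of the 2D libraries. In D2A1 Mmp2 fell from 2D to 3D (log2 fold change -4.31 ± 0.61, adjusted p = 0.0207), the largest change with culture of any member called, and the call was lost without either D2A1 library of batch 2 or of batch 3, at fold changes of -3.91 to -4.41 and adjusted p of 0.0942 to 0.145. In D2.OR the change was -1.55 ± 0.56, adjusted p = 0.192, and -2.37, adjusted p = 0.00226 without batch 1. Mmp2 was lower in D2.OR in 2D (-1.5 ± 0.53, adjusted p = 0.0412), a call lost without D2A1 2D replicate 2 or 3, any 1 of the 3 D2A1 3D libraries, any 1 of the 3 D2.OR 2D libraries or D2.OR 3D replicate 2, at fold changes of -1.06 to -1.69 and adjusted p of 0.051 to 0.193, and without batch 2 (-1.3, adjusted p = 0.258) or batch 3 (-1.3, adjusted p = 0.166). That call was also lost without the batch block and with limma on log2(TPM + 1) and on log2(TPM + 0.1). In 3D the difference had the other sign and missed the threshold (1.27 ± 0.57, adjusted p = 0.0897), passing it with DESeq2 (1.31, adjusted p = 0.0357) and without D2A1 2D replicate 1 or D2.OR 3D replicate 3. The interaction was 2.76 ± 0.77, adjusted p = 0.154 with edgeR, 2.81, adjusted p = 0.0102 with DESeq2 and 2.32, adjusted p = 0.00498 without batch 1.

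Mmp9, gelatinase B, is named here after its values were seen, since it stayed under a mean of 1 TPM in every group. It stood in D2A1 at 0.11, 0.12 and 0.12 TPM in 2D and at 0.35, 0.71 and 0.52 TPM in 3D, and the 2 groups did not overlap. In D2.OR it stood at 0.31, 0.44 and 0.4 TPM in 2D and at 1.03, 1.44 and 0.41 TPM in 3D. In D2A1 it rose from 2D to 3D (log2 fold change 2.14 ± 0.42, adjusted p = 0.0404), at 13 expected counts or fewer in each 2D library, and the call was lost with limma on log2(TPM + 1) and on log2(TPM + 0.1), with only the 6 libraries compared, without the batch block and without any 1 of the 8 libraries of batches 2 and 3. In 2D it was higher in D2.OR (1.86 ± 0.42, adjusted p = 0.00578), which was lost without batch 2 (1.79, adjusted p = 0.0642) and with limma on log2(TPM + 1).

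A cluster of Mmp genes on chromosome 9 includes Mmp3, Mmp10 and Mmp13, whose levels in batch 1 lay apart from those in the other batches in at least 1 line. It holds 9 members, Mmp13, Mmp12, Mmp1b, Mmp3, Mmp10, Mmp8, Mmp27, Mmp20 and Mmp7, within 427 kb at chr9:7272514-7699585 of GRCm38. Only Mmp3, Mmp10 and Mmp13 reached a mean of 1 TPM, and the other 6 stayed at or below 0.64 TPM. A promoter sequence from RefSeq (GRCm38.p6) was found for 31 of the 45 members, and the letters TGANTCA, the site of AP-1, were searched in the 250 bases before each start. The motif reads the same on both strands. It was present for 7 of the 9 clustered members and for 0 of the 22 others, and 6.75% of all 32851 promoters hold it. The clustered genes are related in sequence, so they are not independent examples, and the motif was equally present upstream of Mmp7 and Mmp20, which were at or near 0. The 150 bases before the start are shown for the 3 transcribed members and, as a neighbor that was almost silent in these cells, for Mmp7, on the plus strand with TGANTCA in capitals. They run over chr9:7272364-7272513 for Mmp13, chr9:7445672-7445821 for Mmp3, chr9:7502192-7502341 for Mmp10 and chr9:7691940-7692089 for Mmp7.
Mmp13: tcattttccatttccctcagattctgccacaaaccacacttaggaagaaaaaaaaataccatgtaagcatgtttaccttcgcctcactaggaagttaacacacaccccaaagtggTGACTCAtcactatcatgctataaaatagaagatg
Mmp3: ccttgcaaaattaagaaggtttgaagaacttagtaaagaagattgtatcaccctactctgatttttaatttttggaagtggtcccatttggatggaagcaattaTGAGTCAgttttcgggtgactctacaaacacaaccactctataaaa
Mmp10: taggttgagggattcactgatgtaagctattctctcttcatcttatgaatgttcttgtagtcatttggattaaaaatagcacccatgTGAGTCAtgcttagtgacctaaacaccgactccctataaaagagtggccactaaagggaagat
Mmp7: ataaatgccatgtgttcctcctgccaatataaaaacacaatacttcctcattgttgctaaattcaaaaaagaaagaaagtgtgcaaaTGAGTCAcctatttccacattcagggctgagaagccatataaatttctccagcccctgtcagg
The motif begins 35, 46, 63 and 63 bases before the start in this order. A match is a description of the letters and was not tested for binding.

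Mmp3, stromelysin 1, which cleaves many matrix proteins and activates other pro-Mmp enzymes, stood in 2D at 0.13, 0.4 and 0.17 TPM in D2A1 and at 0.33, 30.6 and 19.8 TPM in D2.OR. On Matrigel the levels were 0.13, 1.47 and 0.99 TPM in D2A1 and 1.73, 3.97 and 4.98 TPM in D2.OR. In D2.OR 2D replicate 1 it was almost absent and overlapped D2A1, while the other D2.OR replicates were the highest of all. It was higher in D2.OR in 2D (log2 fold change 5.79 ± 1.02, adjusted p = 0.0015), with 6.43, adjusted p = 4.37e-05 without that library and 5.06, adjusted p = 0.00868 without D2.OR 2D replicate 2. It was 6.58, adjusted p = 1.51e-05, 5.18, adjusted p = 0.0475 and 5.04, adjusted p = 0.0477 without batches 1, 2 and 3, in that order. In 3D it was also called higher in D2.OR (2.53 ± 0.84, adjusted p = 0.0295), but this was lost without D2.OR 3D replicate 1 (1.70, adjusted p = 0.0974) or replicate 3, without any 1 of the 3 D2A1 3D libraries, and without batch 2 or batch 3. The 3D call was also lost without the batch block and with limma on log2(TPM + 1) and on log2(TPM + 0.1). Without batch 1 the 3D difference was 1.88, adjusted p = 0.00155, and without D2.OR 3D replicate 2 it was 3.20, adjusted p = 0.02. Without batch 1 Mmp3 fell from 2D to 3D in D2.OR (-2.45, adjusted p = 0.00448), rose in D2A1 (2.25, adjusted p = 0.00474) and passed the test of the interaction (-4.70, adjusted p = 0.00299), which with all 12 libraries was -3.26 ± 1.3, adjusted p = 0.243.

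Mmp13, collagenase 3, was not called in any comparison of the reported fit and is named here after its values were seen. It stood in 2D at 1.01, 0.44 and 0.18 TPM in D2A1 and at 0.35, 8.43 and 13.4 TPM in D2.OR. Its 3D libraries held 0.79, 0.64 and 0.55 TPM in D2A1 and 0.19, 2.09 and 3.3 TPM in D2.OR. D2.OR replicate 1 was near or below the D2A1 level in both cultures, as it was for Mmp3 in 2D alone, while replicates 2 and 3 were above it. The 2D difference was 3.27 ± 1.39, adjusted p = 0.0781, and it was called higher in D2.OR without batch 1 (5.21, adjusted p = 9.65e-05), without the batch block (3.89, adjusted p = 0.0255) and when any 1 of 3 libraries of batch 1 was left out: the D2A1 2D library (4.76, adjusted p = 0.015), that of D2.OR 2D (4.36, adjusted p = 0.0148) or that of D2.OR 3D (3.73, adjusted p = 0.0385). Without batch 1 it was also higher in D2.OR in 3D (2.13, adjusted p = 0.00315), and it fell from 2D to 3D in D2.OR (-2.03, adjusted p = 0.0187). Mmp10, stromelysin 2, had the opposite pattern. It stood in 2D at 11.6, 0.42 and 0.59 TPM in D2A1 and at 0.01, 0.16 and 0.14 TPM in D2.OR. In 3D it stood at 4.69, 0.69 and 0.92 TPM in D2A1 and at 0, 0.08 and 0.03 TPM in D2.OR. All D2A1 libraries were above all D2.OR libraries, and D2A1 replicate 1 was the highest in both cultures. It was lower in D2.OR in 2D (log2 fold change -4.02 ± 1.38, adjusted p = 0.0369), with -1.58, adjusted p = 0.0317 without batch 1, and the call was lost without D2A1 2D replicate 1 (-2.40, adjusted p = 0.108), D2.OR 2D replicate 1 (-2.34, adjusted p = 0.126), D2.OR 2D replicate 3, D2A1 3D replicate 2 or 3, D2.OR 3D replicate 3, batch 2 or batch 3. This 2D call was also lost with DESeq2's likelihood-ratio test, with limma on log2(TPM + 1) and with only the 6 libraries compared. Over the 12 single libraries left out, the 2D fold change ran from -2.34 to -5.09. In 3D Mmp10 was also lower in D2.OR (-5.21 ± 1.47, adjusted p = 0.0145), with -3.78, adjusted p = 0.000947 without batch 1, -6.92, adjusted p = 0.0402 without batch 2 and -7.01, adjusted p = 0.0183 without D2.OR 3D replicate 2, and the call was lost without D2.OR 3D replicate 1 (-3.69, adjusted p = 0.0633), without batch 3 and with limma on log2(TPM + 1).

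**Figure D5:**
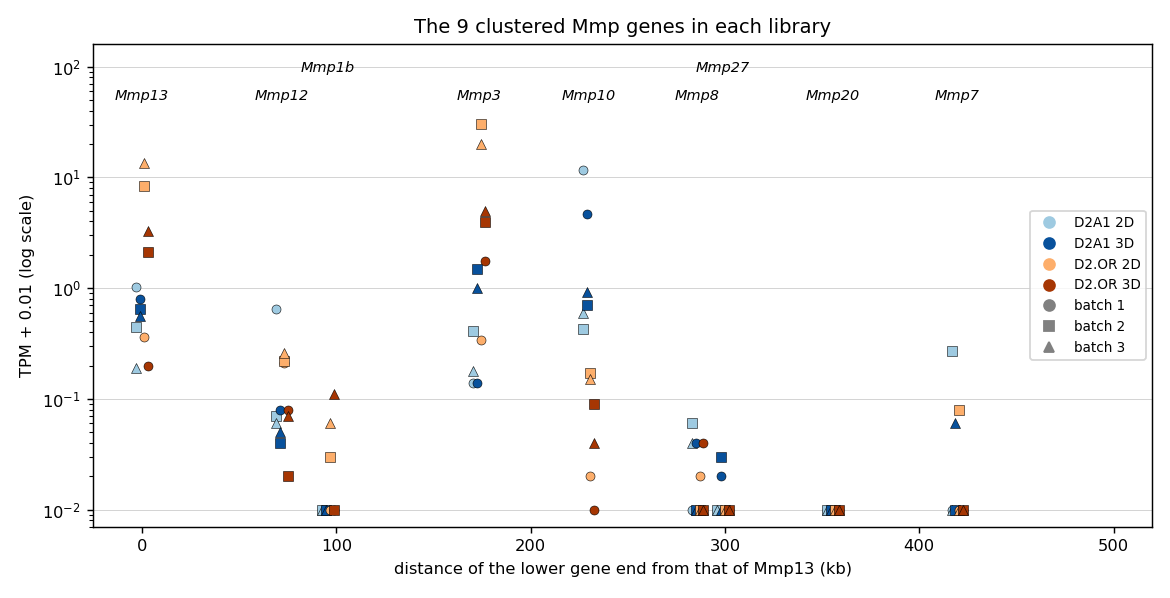
TPM in each library (vertical axis, log scale, 0.01 added) of the 9 clustered Mmp genes, placed by distance from Mmp13 (horizontal axis, kb). Only Mmp13, Mmp3 and Mmp10 reach 1 TPM in any library, with the highest values of Mmp13 and Mmp3 in D2.OR 2D batches 2 and 3 (squares and triangles) and those of Mmp10 in D2A1 batch 1 (circles).

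The remaining secreted Mmp genes split between the lines. Mmp19, which cleaves basement membrane proteins, stood in 2D at 8.81, 22.5 and 22.5 TPM in D2A1 and at 45.3, 140.1 and 118 TPM in D2.OR. The levels in 3D were 8.24, 17.4 and 10.6 TPM in D2A1 and 52.3, 70.8 and 94 TPM in D2.OR. All D2.OR libraries were above all D2A1 libraries, and replicate 1 was lowest in all 4 groups. The log2 fold change was 2.67 ± 0.24, adjusted p = 3e-05 in 2D and 2.68 ± 0.24, adjusted p = 2.77e-05 in 3D, and both calls were kept in all alternatives. Mmp28, epilysin, stood in 2D at 4.72, 15.1 and 8.61 TPM in D2A1 and at 13.5, 18.5 and 15.1 TPM in D2.OR, and these overlapped. On Matrigel the levels were 6.84, 1.97 and 1.14 TPM in D2A1 and 23.4, 29.1 and 24.9 TPM in D2.OR, which did not overlap. It was higher in D2.OR in 3D (3.06 ± 0.62, adjusted p = 0.00292), with 4.27, adjusted p = 2.33e-05 without D2A1 3D replicate 1 and 4.17, adjusted p = 6.1e-06 without batch 1. The interaction was 2.12 ± 0.83, adjusted p = 0.236 and passed without batch 1 (3.44, adjusted p = 0.0018). Mmp19 and Mmp28 overlap the opposite-strand genes Tmem198b and 1700020L24Rik, and their expected counts were not whole in all 12 libraries, so part of their reads was shared out by estimate.

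Mmp11, stromelysin 3, which is activated inside the cell by furin, was the most abundant of the Mmp genes that were lower in D2.OR. It stood in 2D at 34.8, 54.8 and 45.6 TPM in D2A1 and at 27.5, 17.3 and 15.2 TPM in D2.OR. Its 3D libraries held 26.3, 16.3 and 11.7 TPM in D2A1 and 19.4, 12.3 and 10.3 TPM in D2.OR. The lines did not overlap in 2D and overlapped in 3D, and within D2A1 every 3D library was below every 2D library. It was lower in D2.OR in 2D (log2 fold change -1.16 ± 0.27, adjusted p = 0.00615), which was lost without batch 2 (-0.94, adjusted p = 0.116) or batch 3 (-0.96, adjusted p = 0.0869). It fell from 2D to 3D in D2A1 (-1.34 ± 0.27, adjusted p = 0.0415), with -1.72, adjusted p = 0.000259 without batch 1, and the call was lost without any 1 of the 8 libraries of batches 2 and 3 or D2.OR 3D replicate 1, at fold changes of -1.12 to -1.35 and adjusted p of 0.0501 to 0.223. The 3D difference between the lines was -0.39 ± 0.26, adjusted p = 0.231. Mmp11 overlaps Chchd10 on the opposite strand, which reached 117 TPM. Mmp23, a membrane-bound member with an unusual C-terminal region, stood in 2D at 0.81, 1.26 and 1.69 TPM in D2A1 and at 0.62, 0.37 and 0.8 TPM in D2.OR. In 3D it stood at 1.46, 0.56 and 1.35 TPM in D2A1 and at 0.5, 0.35 and 0.43 TPM in D2.OR. The lines did not overlap, but in 2D they were parted by only 0.81 against 0.8 TPM. It was lower in D2.OR in 2D (-1.16 ± 0.32, adjusted p = 0.0137), which was lost without D2A1 2D replicate 3 (-0.94, adjusted p = 0.0629), and in 3D (-1.16 ± 0.32, adjusted p = 0.0127), which was lost without D2A1 3D replicate 1 (-0.96, adjusted p = 0.0611) or D2.OR 3D replicate 3 (-0.96, adjusted p = 0.0648). Both were lost without batch 2 or batch 3, and the 2D call also with only the 6 libraries compared. Mmp12, Mmp21, Mmp8, Mmp1b, Mmp27, Mmp20 and Mmp7 had no call or were not tested in the reported fit. Mmp12 was called higher in D2.OR in 2D without batch 1 (2.17, adjusted p = 0.0295) and without D2A1 2D replicate 1 (1.96, adjusted p = 0.0344).

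Of the proteoglycan-cleaving Adamts genes, Adamts1, Adamts5 and Adamts9 were higher in D2.OR in both cultures and Adamts4 was lower in 2D. Adamts1, which cleaves versican and aggrecan, stood in 2D at 157, 18.7 and 20.3 TPM in D2A1 and at 222, 174 and 195 TPM in D2.OR. The levels in 3D were 55.8, 18.3 and 17.2 TPM in D2A1 and 148, 73 and 63.3 TPM in D2.OR. D2A1 2D replicate 1 was far above the other D2A1 libraries and near the D2.OR level, and the lines did not overlap in either culture. The log2 fold change was 2.39 ± 0.49, adjusted p = 0.00335 in 2D, with 3.15, adjusted p = 8.39e-05 without that library and 3.35, adjusted p = 2.26e-06 without batch 1, and 1.73 ± 0.46, adjusted p = 0.0112 in 3D. Both calls were lost without the batch block, without batch 2 (1.96, adjusted p = 0.0668 in 2D, 1.62, adjusted p = 0.0839 in 3D) and without batch 3 (1.87, adjusted p = 0.0657 in 2D, 1.65, adjusted p = 0.0756 in 3D). In D2.OR every 3D library was below every 2D library (-1.31 ± 0.45, adjusted p = 0.182), a difference that passed without batch 1 (-1.47, adjusted p = 0.00132).

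Adamts5, a major aggrecanase that lies beside Adamts1 on chromosome 16, stood in 2D at 0.55, 0.24 and 0.11 TPM in D2A1 and at 5.64, 6.8 and 8.57 TPM in D2.OR. On Matrigel the levels were 0.13, 0.18 and 0.17 TPM in D2A1 and 4.6, 4.28 and 3.7 TPM in D2.OR. The lines were apart in every library. The log2 fold change was 4.75 ± 0.49, adjusted p = 7.61e-05 in 2D and 4.68 ± 0.49, adjusted p = 7.42e-05 in 3D, kept in all alternatives, and the 2D value was 5.52, adjusted p = 1.38e-05 without D2A1 2D replicate 1, 5.57, adjusted p = 1.43e-05 without batch 1 and 4.13, adjusted p = 0.0023 without batch 3. Adamts9, which also cleaves versican, stood in 2D at 15.6, 4.86 and 6.61 TPM in D2A1 and at 37.3, 42.6 and 35.3 TPM in D2.OR. Its 3D libraries held 6.27, 2.87 and 2.16 TPM in D2A1 and 46, 44.1 and 43.6 TPM in D2.OR. All D2.OR libraries were above all D2A1 libraries, by 2.39 ± 0.35, adjusted p = 0.000549 in 2D and 3.73 ± 0.37, adjusted p = 5.3e-05 in 3D, kept in all alternatives. In each batch its level was lower in 3D than in 2D in D2A1 (-1.18 ± 0.34, adjusted p = 0.0662 over the batches) and slightly higher in D2.OR, and the interaction was 1.34 ± 0.47, adjusted p = 0.204. Adamts9 had expected counts that were not whole in 8 of 12 libraries.

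Adamts4, another aggrecanase, stood in 2D at 71.3, 53.6 and 53.2 TPM in D2A1 and at 10.2, 31.7 and 34.6 TPM in D2.OR. In 3D it stood at 34.8, 47.1 and 29.9 TPM in D2A1 and at 11.2, 25.6 and 32.3 TPM in D2.OR. D2.OR replicate 1 was the lowest library in both cultures. It was lower in D2.OR in 2D (log2 fold change -1.28 ± 0.43, adjusted p = 0.0335), which was lost without D2A1 2D replicate 1 (-0.73, adjusted p = 0.11), D2.OR 2D replicate 1 (-0.87, adjusted p = 0.131) or D2.OR 2D replicate 2 (-1.43, adjusted p = 0.0622), and without batch 1 (-0.56, adjusted p = 0.0612) or batch 2 (-1.60, adjusted p = 0.106). The 2D call was also lost without the batch block and with only the 6 libraries compared. In 3D the difference was -0.81 ± 0.42, adjusted p = 0.133. The related Adamts8 and Adamts15 are named after their values were seen. Adamts8 had 0 counts in the 3 D2A1 2D libraries against 23 in D2.OR 2D, at least 2.58-fold higher in D2.OR (floor of 3 counts per library), and 1 against 145 counts in 3D, a ratio of 158 (95% counting interval 27.8 to 6267). That 1 count was in D2A1 3D replicate 1, and the fitted log2 fold change in 3D of 6.69 was 8.69 without that library, 5.99 and 6.04 when replicate 2 of D2A1 3D or of D2.OR 3D was left out, 8.73 without batch 1 and 5.75 without batch 2. Adamts15 reached at most 0.09 TPM and was called higher in D2.OR in both cultures, with a ratio from 7 against 35 counts in 3D of 5.43 (2.38 to 14.5), and its 2D call was lost without D2A1 2D replicate 1, D2.OR 2D replicate 1 or 2, or batch 2. With limma on log2(TPM + 1) both calls of Adamts15 and the 2D call of Adamts8 were lost, and that of Adamts8 also on log2(TPM + 0.1). The counting intervals cover counting error only.

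The procollagen N-propeptidases, which trim the amino end of fibrillar procollagens, differed between the lines in opposite directions. Adamts14 stood in 2D at 2.75, 3.35 and 2.86 TPM in D2A1 and at 1.49, 1.18 and 1.58 TPM in D2.OR. The levels in 3D were 2.31, 2.65 and 2.09 TPM in D2A1 and 0.68, 0.45 and 0.75 TPM in D2.OR. All D2A1 libraries were above all D2.OR libraries, and within D2.OR every 3D library was below every 2D library. It was lower in D2.OR in 2D (log2 fold change -0.98 ± 0.23, adjusted p = 0.0077), lost without batch 2 (-0.73, adjusted p = 0.0583), and in 3D (-1.98 ± 0.24, adjusted p = 0.000182), kept in all alternatives. It fell from 2D to 3D in D2.OR (-1.22 ± 0.24, adjusted p = 0.0454), which was lost without any 1 of the 6 D2.OR libraries or of the 4 D2A1 libraries of batches 2 and 3 and without any 1 batch, at fold changes of -1.0 to -1.42 and adjusted p of 0.0534 to 0.482. Adamts2, named after its values were seen, was at or near 0 in D2A1. It had 0 counts in the D2A1 2D libraries against 443 in D2.OR 2D, where it stood at 0.28, 0.83 and 1.29 TPM, at least 51.5-fold higher in D2.OR (floor of 3 counts per library). In 3D it had 3 counts in D2A1 against 384 in D2.OR, a ratio of 139 (95% counting interval 47.2 to 678). All 3 of those counts were in D2A1 3D replicate 2, and the fitted log2 fold change of 6.89 was 9.71 without that library, 6.08 without D2A1 3D replicate 3, 9.66 without batch 2 and 6.10 without batch 3. Adamts3 reached 0.04 TPM.

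Adamts12, which cleaves cartilage oligomeric matrix protein, stood in 2D at 0.9, 1.36 and 1.77 TPM in D2A1 and at 8.25, 17.5 and 16.1 TPM in D2.OR. On Matrigel the levels were 0.85, 0.53 and 0.47 TPM in D2A1 and 11.2, 11 and 10.3 TPM in D2.OR. The lines were apart in every library, by 3.49 ± 0.33, adjusted p = 4.69e-05 in 2D and 4.09 ± 0.35, adjusted p = 2.1e-05 in 3D, kept in all alternatives. In D2A1 the change with culture was -0.97 ± 0.32, adjusted p = 0.0858, and -1.5, adjusted p = 0.000889 without batch 1. Adamts7, its closest relative, was not called in any comparison of the reported fit, was called lower in 3D in D2A1 with DESeq2 (-0.98, adjusted p = 0.0344) and ranged from 3.45 to 21.3 TPM over all 12 libraries. Adamts6, a fibrillin-associated member, stood in 2D at 5.65, 4.21 and 3.6 TPM in D2A1 and at 7.28, 6.72 and 6.29 TPM in D2.OR. Its 3D libraries held 3.94, 3.52 and 3.49 TPM in D2A1 and 6.28, 3.82 and 4.26 TPM in D2.OR. The lines were apart in 2D and overlapped in 3D. It was higher in D2.OR in 2D (0.81 ± 0.12, adjusted p = 0.000581), kept in all alternatives, and the 3D difference was 0.26 ± 0.12, adjusted p = 0.0939. In D2.OR it fell from 2D to 3D (-0.71 ± 0.12, adjusted p = 0.0305), which was lost without any 1 of the 4 D2.OR libraries of batches 2 and 3 or of 3 D2A1 libraries (2D replicate 2 and 3D replicates 2 and 3) and without batch 2 or batch 3, at fold changes of -0.62 to -0.75 and adjusted p of 0.0511 to 0.587. Adamts10, also tied to fibrillin, was not called in any comparison of the reported fit, at 10.3 to 20.3 TPM, and was called higher in D2.OR in 3D with only the 6 libraries compared (0.33, adjusted p = 0.0271). Adamts17, named like Adamts7 and Adamts10 after its values were seen, reached 0.56 TPM and was called higher in D2.OR in 3D (2.38 ± 0.63, adjusted p = 0.0111) and not in 2D. It lost that call without D2A1 3D replicate 2 (2.13, adjusted p = 0.0539), batch 2 or batch 3, without the batch block and with limma on log2(TPM + 1). The 3D difference was 3.63, adjusted p = 0.00809 without D2A1 3D replicate 1. Adamts13, Adamts16, Adamts18, Adamts19 and Adamts20 had no call or were not tested in the reported fit, and without a filter on low counts Adamts18, at 0.07 TPM or less, was called higher in D2.OR in 3D (adjusted p = 0.0403).

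The genes that act with these enzymes were counted in 6 lists of partners, whose calls stand beside the 25.4% higher and 24.4% lower of all genes in 2D and the 27.7% and 26.1% in 3D. Of the membrane tethers, receptors and other inhibitors, 6 of 9 tested were higher and 1 lower in 2D, and 7 and 1 in 3D. The one lower in both was Reck, a membrane-anchored inhibitor of Mmp2, Mmp9 and Mmp14, with means of 3.58 TPM in D2A1 2D and 0.533 in D2.OR 2D (log2 fold change -2.69 ± 0.46, adjusted p = 0.00126). The syndecan Sdc1, the endocytic receptor Lrp1 and the hyaluronan receptor Cd44 were higher in 2D, by 1.45, 1.33 and 1.25. The 2D libraries of the lines overlapped for Sdc1 (88.55 to 200.9 TPM in D2A1 and 149.8 to 549 in D2.OR). They also overlapped for Lrp1 (42.3 to 146.7 and 95.2 to 318.8 TPM), but not for Cd44 (56.3 to 69 and 88.8 to 171 TPM). The partner genes were not followed through the alternatives. Of the proprotein convertases and activators, 4 of 6 were higher and 1 lower in each culture. Pcsk6 went from 0.11 to 1.96 TPM and cathepsin B, Ctsb, from 759 to 2139 TPM in 2D, the membrane protease St14 had 1 count in D2A1 2D against 485 in D2.OR 2D, and cathepsin L, Ctsl, was the one lower (-0.45).

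Of the ADAM sheddases, the membrane-bound relatives, 3 of 8 were higher and 3 lower in 2D, and 4 and 3 in 3D. Adam8 (4.05), Adam9 (0.70) and Adam17 (0.31) were higher in 2D and Adam12 (-5.24), Adam22 (-2.56) and Adam15 (-1.38) lower. Adam12 stood in 2D at 22.8, 2.17 and 0.96 TPM in D2A1, with replicate 1 far the highest, and at 0.13, 0.07 and 0.15 TPM in D2.OR. Of the Adamts-like genes and papilin, which lack protease activity, 3 of 7 were higher in 2D and 5 in 3D with none lower, led in 2D by Papln (5.51), Adamtsl3 (3.30) and Thsd4 (0.90). Of the astacins and other matrix enzymes, 10 of 16 were higher and 3 lower in 2D, and 8 and 3 in 3D. The fibroblast activation protein gene Fap went from 0.213 TPM in D2A1 2D to 25 in D2.OR 2D, Tll1 from 0.0433 to 2.93 and Loxl2 from 0.113 to 2.56, whereas Pcolce2, a procollagen C-proteinase enhancer, went from 12.8 to 0.01, with Hyal1 (-1.33) and Loxl4 (-0.78) also lower. Of the proteoglycans and other substrates of Adamts enzymes, 3 of 9 were higher and 2 lower in 2D, and 5 and 2 in 3D, with fibrillin 1, Fbn1, higher (4.0) and Fbn2 (-6.35) and biglycan, Bgn (-3.12), lower. With culture, 3 genes of these lists were called in each line, 1 higher and 2 lower in 3D, beside 1.62% of all genes in D2.OR and 3.48% in D2A1, among them Htra1 lower in 3D in both lines (-1.55 in D2.OR and -1.61 in D2A1).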

How the data were processed

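RNA was sequenced from 12 libraries of 2 cell lines in 2 cultures, 3 per group. Per the methods and labels, the authors trimmed reads with Trimmomatic 0.32, checked them with FastQC 0.11.4, aligned them to GRCm38 with STAR 2.5.3 under a GENCODE mouse annotation and quantified genes with RSEM 1.3.0. The deposited values used were expected counts per gene, which are RSEM's estimated counts, and TPM. Whether counting used strand is not given in the sources used here. FPKM columns were not used.

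Members and lists were chosen with earlier results of these data known. Expected counts were rounded and tested over all 16823 genes that passed filterByExpr with edgeR 4.0.16 (R 4.3.3; TMM, glmQLFit and glmQLFTest) in 1 fit of 4 groups with batch as a block, as the study's own model had it, and Benjamini-Hochberg adjustment. Batch is the replicate number, a lane in the labels, and same-numbered libraries of different groups deviated together (correlation of deviations from the group mean 0.0758 to 0.511, median 0.267, against -0.432 to 0.296, median -0.195, for different numbers). Deviations within a group sum to 0, so these medians are linked and the lower is no independent contrast. Common biological variation over genes (BCV) was 21.2%. The test was checked on simulated counts. Alternatives were DESeq2 1.42.0, limma 3.58.1 on log2(TPM + 1) and log2(TPM + 0.1), other size factors and filters, no block, only the groups compared, and each batch and library left out. With all libraries of a group at 0 counts a fold is a lower bound with a floor of 3 counts per library, and with few counts a ratio is given with its exact binomial interval.

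Library values are given for the Timp genes and for each Mmp or Adamts gene with a call in any comparison and a mean of at least 1 TPM in a group. Other members given with values were named after their values were seen. Of each partner list, up to 3 genes in each direction in 2D with a mean of at least 1 TPM are named. Where a symbol had more than 1 protein-coding row (Itgam), the first identifier was used. Nothing states that the replicates came from separately thawed cultures, so p-values measure the spread between these libraries.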

Additional observations from a re-analysis of the deposited data

Results flagged for a closer look

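The 32 tested members were searched for those whose change with culture had 1 sign in every batch of D2.OR and the other in every batch of D2A1. For 3 members, log2 CPM was higher in 3D than in 2D in every batch of D2.OR and lower in every batch of D2A1. The share of all genes that meet this rule was not counted, and the agreement of the batches is the rule itself. The test of the difference did not pass for any of the 3 in the reported edgeR fit. For Timp3 the log2 fold change with culture in D2.OR minus that in D2A1 was 2.79 (edgeR adjusted p = 0.11), and it passed with DESeq2's likelihood-ratio test, without batch 1 and without D2A1 2D replicate 1 (3.11, adjusted p = 0.0125). For Adamts17 it was 2.41 (edgeR adjusted p = 0.217), at 0.56 TPM or less and with 0.07 TPM in both cultures of D2.OR batch 3. For Adamts9 it was 1.34 (edgeR adjusted p = 0.204), and it passed without batch 1 (1.23, adjusted p = 0.0277). Groups of 3 libraries were too small for a test of single outlying libraries.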

How the results depend on the processing

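Of the calls of single members, none changed direction in any alternative, and of the recomputed calls 925 were kept and 160 were lost. The one value with an unadjusted p under 0.05 that changed sign was the interaction of Mmp9, 0.023 with limma on log2(TPM + 1) against -1.3 in the reported fit. With each library or batch left out in turn, called members ran from 10 to 24 between the lines in 2D, from 13 to 22 in 3D, from 0 to 9 between cultures in D2.OR, from 0 to 11 in D2A1 and from 0 to 13 for the interaction. Over all genes the calls ran from 4227 to 9062, from 5273 to 10298, from 0 to 1412, from 0 to 6120 and from 0 to 2999 in the same order.

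The number called between cultures in D2.OR, 2 in the reported fit, was 0 without the replicate block, 5 with DESeq2, 1 with limma on log2(TPM + 1), 1 with at least 10 counts in every library and 9 with only the 6 libraries of the groups compared, beside 20, 1174, 266, 159 and 809 of all genes. In D2A1, 4 in the reported fit, it was 2 without the replicate block, 11 with DESeq2, 2 with limma on log2(TPM + 0.1) and 0 with only the 6 libraries compared, beside 52, 3512, 243 and 15 of all genes. The interaction called 3 members with DESeq2. Without the block, 18 members (7391 genes) were called between the lines in 2D and 14 (8037 genes) in 3D. Over all genes DESeq2 called 3512 between cultures in D2A1, 1174 in D2.OR and 953 for the interaction, against 586, 273 and 4 with edgeR. The cause of these differences was not tested.

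With CPM in place of TPM the log2 ratio of the summed level moved from 1.11 to 1.31 for Adamts between the lines in 3D, from 0.47 to 0.92 for Timp between the lines in 3D and from -0.21 to -0.54 for Timp between cultures in D2A1, and it turned from -0.15 to 0.085 for Timp between cultures in D2.OR. Leaving out a replicate moved the log2 ratio of the Timp sum in D2.OR between cultures from -0.51 to 0.02, that of D2A1 from -0.25 to -0.14, and the line ratios from 0.28 to 0.57 in 2D and 0.20 to 0.65 in 3D. The Mmp line ratios ran from 0.91 to 1.09 in 2D and 1.68 to 1.87 in 3D, the Adamts line ratios from 0.63 to 1.40 and 1.02 to 1.17, and the culture ratios from -0.54 to -0.14 and -1.31 to -0.94 for Mmp and from -0.77 to -0.48 and -1.07 to -0.54 for Adamts, in D2.OR and D2A1. The 13 untested members reached at most 0.26 TPM, and of these Adamts18 alone was called, between the lines in 3D, without a filter on low counts. Whether deeper libraries would have changed this was not tested.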
